A study of Homo sapiens with 12 samples.

Results

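Divergent promoter transcripts are long non-coding RNAs that start next to a protein-coding gene and run away from it on the opposite strand. Their symbol is that of the coding gene followed by -DT. Members were the genes so named whose raw count reached a mean of at least 0.5 CPM (raw count scaled to the library total) over 12 libraries, and 311 of 589 genes with such a name, out of 67049 gene IDs, met this rule. The libraries hold RNA of nuclei and of cytoplasm from HEK293T, an established human line that goes back to kidney cells of an embryo. The cells were collected 48 h after transient transfection with a pIRES2 plasmid encoding SF3B1, in wild-type form (WT) or with the K700E substitution found in blood cancers, and endogenous SF3B1 was present in all of them. SF3B1 belongs to the U2 snRNP and takes part in recognition of the branch point of introns. The 4 groups, WT nucleus, WT cytoplasm, K700E nucleus and K700E cytoplasm, had 3 libraries each, and the series title points to export of mRNA from the nucleus. No label ties the 3 libraries of a group to separate cultures, so p-values reflect spread among libraries that may be of technical origin.

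Most mammalian promoters in CpG islands fire in both directions. The upstream product is usually short-lived, because early polyadenylation sites and few U1 snRNP sites lead to termination close to the start and to decay by the nuclear exosome with its NEXT and PAXT adaptors. Some divergent transcripts are instead spliced, polyadenylated and stable, and these are the ones that annotations tend to name.

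Nuclear libraries held 9086743 to 11200562 counts and cytoplasmic ones 13422598 to 18116929. The fraction labels were checked against marker RNAs: the 13 mitochondrially encoded mRNAs summed to 907 to 1245 CPM in nuclear and 4473 to 18783 CPM in cytoplasmic libraries, and 5 nuclear long non-coding RNAs, MALAT1 and NEAT1 among them, to 2692 to 9838 against 83.7 to 144 CPM. Of these 5, MALAT1 alone had means of 3723 CPM in WT and 4873 CPM in K700E nuclei, and MEG3 was at 0 in 11 of the 12 libraries. All 6 HEK293T markers (PAX2, LIN28B, HMGA2, NEFM, CDH2, VIM) were present, with sums of 246 to 1168 CPM. Of 12 markers of blood cells, fibroblasts, hepatocytes and keratinocytes, CD3E and KRT5 were at 0 in every library. The 12 summed to 38.9 to 139 CPM in WT nuclei, 48.1 to 61.8 in K700E nuclei, 18.8 to 28.6 in WT cytoplasm and 19.6 to 34.7 in K700E cytoplasm, mostly COL1A1. The part of these RNAs in the member results was not tested. Counts per gene do not part WT from K700E mRNA of SF3B1, so the construct labels were not checked.

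In GENCODE release 29, 309 of the 311 members were annotated, and all 309 lay on the strand opposite to their coding partner. The nearest annotated starts of member and partner were a median of 137 bp apart (quartiles 60 and 254 bp). They were within 300 bp in 245 pairs and over 1000 bp in 17, with EPM2A-DT farthest at 63386 bp. By these nearest starts, 277 of the 309 members started upstream of the partner with a gap between them. The spans of 81 members overlapped the span of the partner, so not every member so named runs clear of its coding gene. Of the members 69 had a single exon, 182 had 2 to 4 and 58 had 5 or more. All 311 partners were protein-coding genes. Exons of 189 members overlapped those of no other gene. The strand setting of the authors' counting is not given in the sources used here. Reads of the other 120 therefore cannot be told apart from those of the overlapping gene, and the exon overlap is given beside such members below. Spans, introns included, overlapped no other gene in only 141 members. Where spans alone overlap, reads from an intron of the other gene cannot be told apart either. Members without exon overlap may thus still hold reads of other genes.

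RefSeq promoter windows of 300 bases, from 250 before to 50 after the start on GRCh38.p14, were found for 239 members and 261 partners. Members' windows held a median of 31 CpG dinucleotides and partners' 30, against 14 over all 35116 promoters. The GC box GGGCGG, the core of an SP1 site, was present on either strand in 72.4% of members' windows, in 70.5% of partners' and in 45.0% of all. The core CCGGAAG of ETS sites was in 23.8%, 29.1% and 10.3%, and the palindrome GCGCATGCGC of NRF1 sites in 4.18%, 2.68% and 1.24%. CCAAT was in 33.1%, 39.8% and 34.6%, and the TATA box TATAAA in 3.77%, 5.36% and 11.5%. Windows of a member and its partner share bases where their starts are close, so the shares of members and partners are not separate observations, and a match is only a run of letters.

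The 6 stretches printed next lie between the start of a member and that of its partner, outside every annotated exon, and were chosen because they belong to 3 members that were far more abundant in the nucleus (RAB30-DT, LARP4B-DT, IBA57-DT) and 3 that were more abundant in the cytoplasm (C2orf74-DT and CEBPA-DT with both constructs, ICMT-DT with K700E). Each is the RefSeq sequence of GRCh38.p14 on the member's strand, 5′ to 3′, so that the member starts to the right and the partner to the left. They are chr11:83071924-83072065 (plus), chr10:932776-933025 (plus), chr1:228165513-228165762 (minus), chr2:61144976-61145067 (minus), chr19:33302571-33302820 (plus) and chr1:6235990-6236239 (plus). Capitals mark matches to the motifs spelled out in the previous paragraph, on either strand, and matches may overlap.
RAB30-DT: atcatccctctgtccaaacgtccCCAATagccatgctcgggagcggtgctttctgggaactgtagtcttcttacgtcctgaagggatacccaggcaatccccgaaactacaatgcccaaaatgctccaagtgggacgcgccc
LARP4B-DT: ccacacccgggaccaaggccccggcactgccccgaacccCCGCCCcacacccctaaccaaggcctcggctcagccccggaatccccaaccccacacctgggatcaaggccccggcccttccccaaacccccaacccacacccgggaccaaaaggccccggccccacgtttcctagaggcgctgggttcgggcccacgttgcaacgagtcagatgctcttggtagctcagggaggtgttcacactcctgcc
IBA57-DT: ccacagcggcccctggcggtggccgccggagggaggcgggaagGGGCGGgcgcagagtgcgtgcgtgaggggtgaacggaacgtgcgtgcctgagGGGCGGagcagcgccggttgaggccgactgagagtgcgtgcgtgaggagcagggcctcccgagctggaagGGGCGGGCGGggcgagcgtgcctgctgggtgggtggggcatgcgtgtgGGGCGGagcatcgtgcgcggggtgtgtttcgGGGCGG
C2orf74-DT: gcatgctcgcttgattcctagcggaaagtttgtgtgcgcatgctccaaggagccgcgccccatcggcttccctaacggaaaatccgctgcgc
CEBPA-DT: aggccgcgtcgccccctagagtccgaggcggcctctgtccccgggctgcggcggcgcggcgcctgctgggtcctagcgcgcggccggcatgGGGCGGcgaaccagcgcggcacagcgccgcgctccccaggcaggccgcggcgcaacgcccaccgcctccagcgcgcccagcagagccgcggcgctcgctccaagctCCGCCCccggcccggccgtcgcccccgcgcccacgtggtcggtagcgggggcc
ICMT-DT: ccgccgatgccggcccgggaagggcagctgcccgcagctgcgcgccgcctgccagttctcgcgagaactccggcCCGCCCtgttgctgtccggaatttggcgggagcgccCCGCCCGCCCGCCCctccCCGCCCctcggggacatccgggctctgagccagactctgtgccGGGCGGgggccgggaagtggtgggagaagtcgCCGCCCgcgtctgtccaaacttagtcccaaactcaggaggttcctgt
The nuclear and the cytoplasmic members did not separate by these letters. IBA57-DT, a nuclear member, had 6 GC boxes and ICMT-DT had 7, while LARP4B-DT had 1 and C2orf74-DT had no capital letters at all. CpG counts were 7, 14 and 30 in the 3 nuclear members' stretches and 9, 43 and 28 in the others, of 92 to 250 bases.

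Members were rare RNAs, and more of them was found in nuclei. The median member had a mean of 2.06 CPM, 38 reached 10 CPM, 81 were under 1 CPM, and the 10 most abundant held 24.7% of the members' CPM. Together they made up 2133 ± 246 CPM (raw; SD, n = 3) in WT nuclei and 765 ± 33.8 in WT cytoplasm, and 2103 ± 285 and 866 ± 80.0 with K700E. The lowest nuclear library (1850 CPM) lay far above the highest cytoplasmic one (958 CPM). Their partners summed to 29977 to 31948 CPM in the 4 group means, with no such gap. Between 308 and 311 members had a count in each nuclear library and 300 to 306 in each cytoplasmic one. At the threshold, DNAJA2-DT (0.508 CPM), EIF2B5-DT (0.505) and CDC37L1-DT (0.505) were just inside, and PORCN-DT (0.498), SOD1-DT (0.495) and SPAG16-DT (0.490) just outside.

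After a filter on low counts 300 members were tested and 11 were not: CDKN2A-DT, CSTF3-DT, EIF2B5-DT, EN2-DT, FBXO38-DT, GAS6-DT, KDM2B-DT, LY6E-DT, NEMP2-DT, SOCS3-DT and ZCCHC14-DT. Tests were edgeR quasi-likelihood F tests on the counts of all 20394 genes, with Benjamini-Hochberg adjustment over them and calls at an adjusted p under 0.05. Levels of single members are CPM scaled by TMM, the trimmed mean of M-values, and differences are log2 with a standard error (SE). A cytoplasm-to-nucleus ratio compares shares of 2 RNA pools, and fewer molecules in a compartment cannot be told apart from more of all other RNA in it.

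Of the 10 most abundant members, 6 were clearly nuclear. TMEM161B-DT (ENSG00000247828.8, chromosome 5, 88268895 to 88436685 on GRCh38, up to 8 exons) had 85.0, 72.4 and 98.8 CPM in WT nuclei and 15.3, 16.7 and 14.7 in WT cytoplasm. With K700E it had 92.3, 109 and 124 CPM in nuclei and 22.6, 21.3 and 13.4 in cytoplasm, so the fractions did not overlap with either construct. Its cytoplasm-to-nucleus difference was -2.44 ± 0.24 with WT (edgeR adjusted p = 3.68e-07) and -2.50 ± 0.24 with K700E (2.98e-07).
GARS1-DT, beside the glycyl-tRNA synthetase gene, had 45.3, 93.6 and 91.7 CPM in WT nuclei against 10.9, 10.4 and 9.80 in WT cytoplasm (-2.87 ± 0.30, edgeR adjusted p = 5.9e-07). With K700E its difference was -2.79 ± 0.29. C2orf49-DT, a single-exon transcript, had 72.7, 36.4 and 55.7 against 14.9, 13.5 and 9.61 CPM (-2.10 ± 0.26 with WT and -2.44 ± 0.27 with K700E). DPH5-DT, beside the gene of a diphthamide methyltransferase, had 52.8, 45.7 and 43.1 against 9.25, 9.05 and 8.37 CPM (-2.39 ± 0.22 and -2.01 ± 0.21).
RIPK2-DT, beside the gene of a kinase of NOD receptor signalling, gave -2.09 ± 0.26 and -2.18 ± 0.26, and RAB30-DT, beside a Golgi GTPase gene, -1.55 ± 0.24 and -1.72 ± 0.24. Other genes' exons cover 17.9% of the exonic length of RAB30-DT.

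SLC12A2-DT, NIPBL-DT and COX10-DT, also among the 10, differed less between fractions. SLC12A2-DT, beside the gene of the Na-K-Cl cotransporter, had 14.6, 32.9 and 22.7 against 28.1, 35.0 and 43.9 CPM with WT (0.61 ± 0.27, edgeR adjusted p = 0.0604), and it was called without WT nucleus library 2 (0.98, adjusted p = 0.00476). With K700E it was 0.77 ± 0.28 (adjusted p = 0.0217), a call that ended with library size alone as scaling (0.35, adjusted p = 0.288) and without K700E nucleus library 1 (0.70, adjusted p = 0.0632). NIPBL-DT, beside the cohesin loader gene, was -0.43 ± 0.30 with WT (adjusted p = 0.223; -0.67 and 0.0363 without WT nucleus library 2, but 0.05 and 0.899 without library 1) and -0.84 ± 0.30 with K700E (0.0218), which ended without K700E nucleus library 2 (-0.64, adjusted p = 0.103). COX10-DT, beside the gene of a heme A synthesis enzyme, was -0.73 ± 0.28 with WT (0.0271) and -0.64 ± 0.28 with K700E (0.0515). Both were at the edge of a call. The WT call ended in 7 of 22 alternative fits, such as without WT nucleus library 1 (-0.44, adjusted p = 0.183) or any single WT cytoplasm library. The K700E difference was called in 8 of 22, such as with DESeq2 (-0.74, DESeq2 adjusted p = 0.0198) and library size alone (-1.05, edgeR adjusted p = 0.0031).

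**Figure D1:**
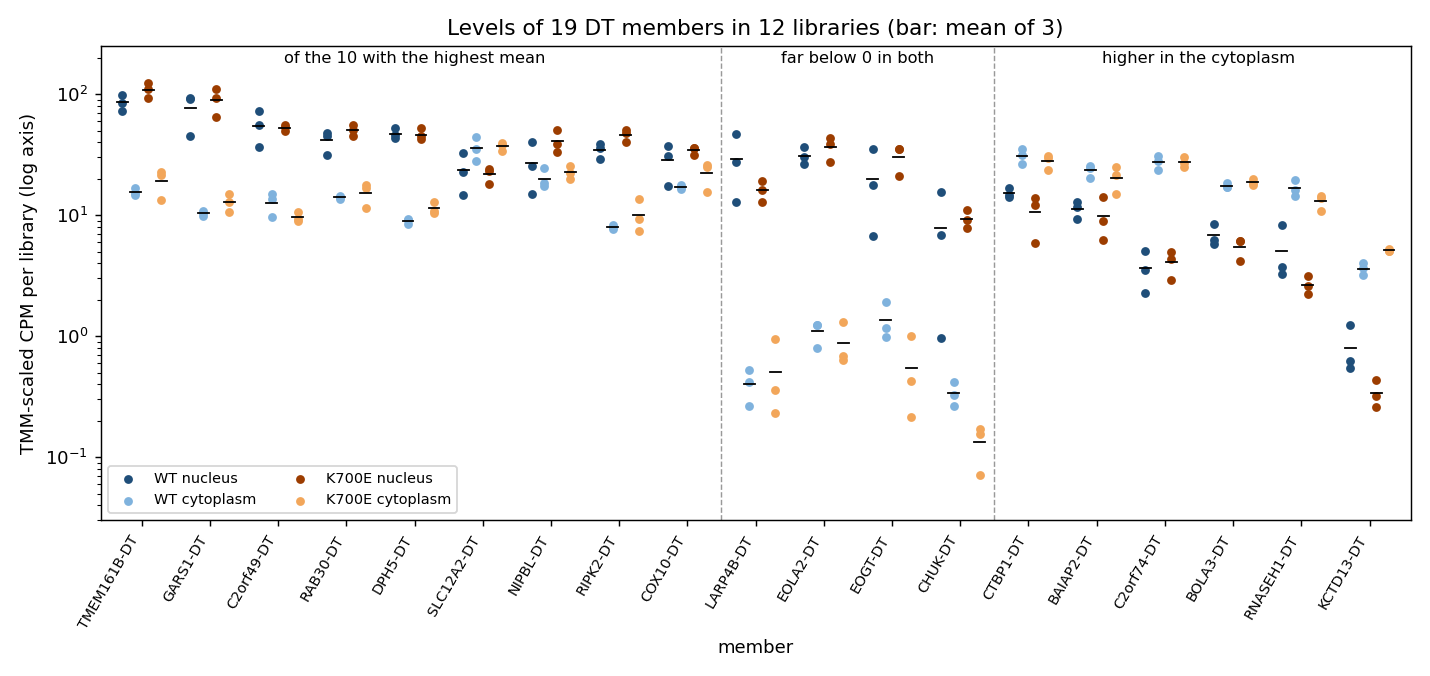
TMM-scaled CPM (log axis) of 19 members in each of the 12 libraries, with 1 point per library, colour by group and a black bar at the mean of 3: the 9 of the 10 most abundant members that were called with at least 1 construct, 4 far lower in the cytoplasm and 6 higher there, the last 10 picked for their fraction difference. TMEM161B-DT sits at 72.4 to 124 CPM in nuclei and 13.4 to 22.6 in cytoplasm, while C2orf74-DT sits at 2.28 to 5.09 and 23.4 to 30.8.

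Of the 300 members tested, 143 were called with WT (47.7%, against 67.1% of all genes tested) and 149 with K700E (49.7%, against 65.9%). With WT 117 were lower (39.0%) and 26 higher (8.67%) in the cytoplasm than in nuclei, against 40.0% and 27.1% of all genes. The share of members that were lower was thus near that of all genes, and the share that were higher was well under it. With K700E 110 were lower (36.7%) and 39 higher (13%), against 37.9% and 28.1% of all genes. The median member was at -0.77 with WT and -0.61 with K700E, and the median of all genes at -0.38 and -0.28. The 3 libraries of 1 fraction lay entirely below those of the other for 134 members with WT and 133 with K700E (44.7% and 44.3%, against 40.4% of all genes in both), and entirely above for 38 and 49 (12.7% and 16.3%, against 29.7% and 30.2%). The split depends on scaling. With library size alone the median of all genes moved by -0.50 with WT and -0.40 with K700E, and the members' calls became 10 higher and 155 lower with WT and 21 and 136 with K700E. Upper quartile factors gave 13 and 148, and 21 and 131. The median member minus the median of all genes stayed between -0.49 and -0.29 under TMM, library size, upper quartile and both DESeq2 settings. The 26 members higher with WT became 17 without WT cytoplasm library 3, and the WT median became -0.59 without WT nucleus library 2.

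The rule takes a mean over both fractions, so a member can enter on its nuclear level alone. Among the 237 members with 0.5 CPM or more in the cytoplasm, 78 were lower and 26 higher with WT, and 75 and 39 with K700E, with medians of -0.43 and -0.24. These are 32.9% and 11% with WT and 31.6% and 16.5% with K700E, against 26.6% and 35.1%, and 24.9% and 36.4%, of all 15730 genes that passed the same cytoplasmic filter. The counts and medians therefore describe the members chosen and are not evidence on all divergent transcripts.

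The lowest ratios belonged to LARP4B-DT, EOLA1-DT, EOLA2-DT, IBA57-DT, CHUK-DT, STX5-DT and EOGT-DT. LARP4B-DT (ENSG00000229869.1, chromosome 10, 933026 to 942743, 3 exons, no exon overlap) had 27.2, 47.1 and 12.8 CPM in WT nuclei and 0.267, 0.415 and 0.523 in WT cytoplasm, which was -5.68 ± 0.52 (edgeR adjusted p = 1.89e-07). With K700E it had 16.1, 19.3 and 12.7 against 0.941, 0.232 and 0.356 CPM (-4.61 ± 0.50). All 6 nuclear libraries were far above all 6 cytoplasmic ones, and its partner LARP4B, which encodes an RNA-binding protein, had near-equal levels in both fractions (0.08 ± 0.18 and -0.22 ± 0.18, adjusted p = 0.701 and 0.286), though it was called lower with library size alone (-0.44 and -0.64).
EOLA2-DT had 26.5, 36.2 and 30.1 CPM in WT nuclei and 0.801, 1.25 and 1.24 in WT cytoplasm (-4.62 ± 0.33, edgeR adjusted p = 3.06e-08), and -5.13 ± 0.34 with K700E. EOLA1-DT had 214 counts over the WT nuclear libraries and 2 over the cytoplasmic ones, a ratio of 117 with an exact 95% Poisson interval of 32.1 to 976. EOLA1 and EOLA2 are near-identical copies on the X chromosome, so how shared reads were assigned to these members is uncertain, and other genes cover 37.0% of the exons of EOLA1-DT.
EOGT-DT, beside the gene of an O-GlcNAc transferase, had 35.1, 35.3 and 20.9 CPM in K700E nuclei and 0.428, 1.01 and 0.214 in K700E cytoplasm (-5.43 ± 0.58), and -3.72 ± 0.53 with WT, which was -2.98 without WT nucleus library 1. Other genes cover 20.7% of its exons.

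CHUK-DT, beside the gene of the kinase IKK-alpha, had 15.5, 0.965 and 6.91 CPM in WT nuclei, with WT nucleus library 2 far under the other two, and 0.267, 0.415 and 0.327 in WT cytoplasm (-4.0 ± 0.66, edgeR adjusted p = 7.11e-05). Its K700E nuclei were closer together at 11.1, 9.07 and 7.76 CPM, against 0.171, 0.155 and 0.0712 (-5.02 ± 0.70). Without WT nucleus library 1 the WT difference was -2.99 (adjusted p = 0.000237). IBA57-DT, beside the gene of a mitochondrial iron-sulfur cluster factor, had 3.13, 7.45 and 7.91 against 0.178, 0.0830 and 0.131 CPM with WT (-4.44 ± 0.57). STX5-DT, beside a Golgi SNARE gene, was counted 193 times in K700E nuclei and 0 times in K700E cytoplasm, at least 69.9-fold lower there if the whole group is set to a floor of 3 counts, while the exact 95% Poisson lower limit of the ratio is 56.3. It was the only member with 0 counts in a whole group, and other genes cover 67.6% of its exons. FOXP1-DT, beside a forkhead factor gene, had 92 counts in K700E nuclei and 1 in K700E cytoplasm, a ratio of 100.0 (17.5 to 3992). These intervals and the floor cover counting error only.

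On the cytoplasmic side C2orf74-DT had the largest called difference of the named members with WT, and KCTD13-DT with K700E. C2orf74-DT (ENSG00000212978.6, chromosome 2, 61141592 to 61144969, 3 exons, no exon overlap) had 5.09, 2.28 and 3.55 CPM in WT nuclei and 23.4, 30.8 and 28.0 in WT cytoplasm (2.85 ± 0.31, edgeR adjusted p = 9.19e-07). With K700E it had 4.95, 2.94 and 4.36 against 30.1, 26.7 and 25.1 CPM (2.69 ± 0.30). Its partner C2orf74 went the other way without passing the test (-0.45 ± 0.51 and -0.48 ± 0.51, adjusted p = 0.444 and 0.41).
BOLA3-DT, beside an iron-sulfur cluster gene, had 8.38, 5.79 and 6.28 against 17.1, 18.4 and 17.1 CPM with WT (1.34 ± 0.26), and 1.74 ± 0.26 with K700E. RNASEH1-DT, beside the gene of ribonuclease H1, had 3.29, 8.24 and 3.73 against 14.4, 16.1 and 19.5 CPM (1.69 ± 0.34), and 2.23 ± 0.35 with K700E. ATP6AP1-DT, beside a V-ATPase accessory subunit gene, had 1.72, 3.42 and 1.46 against 10.1, 7.39 and 6.99 CPM (1.82 ± 0.40 and 1.90 ± 0.40).
HCCS-DT (1.75 ± 0.40 and 1.84 ± 0.40), HK2-DT (1.76 ± 0.45 and 1.71 ± 0.45), the partners of which encode holocytochrome c synthase and hexokinase 2, and KCTD13-DT (1.98 ± 0.41 and 3.40 ± 0.43) were higher with both constructs too.

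Some calls on this side were weaker. CTBP1-DT, beside a corepressor gene, had 14.3, 16.8 and 14.7 against 31.2, 26.2 and 35.2 CPM with WT (1.01 ± 0.28, edgeR adjusted p = 0.00474), and 1.38 ± 0.29 with K700E. Its WT call ended with library size alone (0.49, adjusted p = 0.162) and upper quartile factors (0.63, adjusted p = 0.0564). BAIAP2-DT (1.05 ± 0.30 with both), KDM7A-DT (0.96 ± 0.34 and 1.61 ± 0.34) and CEBPA-DT (1.26 ± 0.36 and 1.08 ± 0.36), beside genes of a membrane-curving scaffold, a histone demethylase and a leukaemia-related transcription factor, lost at least 1 call with library size alone. For BAIAP2-DT that was 0.53 with WT and 0.61 with K700E (adjusted p = 0.155 and 0.108), for KDM7A-DT 0.46 with WT (0.265), and for CEBPA-DT 0.75 and 0.67 (0.0875 and 0.128). DPP3-DT, beside a dipeptidyl peptidase gene, had 0.470, 0.614 and 0.455 against 1.60, 1.74 and 2.81 CPM with WT (1.72 ± 0.65, adjusted p = 0.0272), and other genes cover 39.4% of its exons. Without WT cytoplasm library 3 its WT call ended (1.45, adjusted p = 0.0892), and without K700E cytoplasm library 3 its K700E call did (1.49 against 2.09 ± 0.65, adjusted p = 0.0664).

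Few members differed in direction between the constructs, as was true of all genes tested. With separate libraries for WT and K700E, 96 members were lower and 17 higher in the cytoplasm in both, and 0 were called in opposite directions. These are 32.0% and 5.67% of the members, against 34.5% and 24.1% of all genes tested, of which 6 were called in opposite directions. Another 21 were lower with WT alone, 14 lower with K700E alone, 9 higher with WT alone and 22 higher with K700E alone, and 121 were called with neither. The same counts were not taken over all genes, so these are no result about the members. A call with 1 construct alone is no test of a difference between constructs. Over the 300 members the log2 ratios of WT and K700E had a Pearson r of 0.915 and a Spearman rho of 0.908, against 0.951 and 0.954 over all genes tested, as a description across genes that share libraries and depth.

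**Figure D2:**
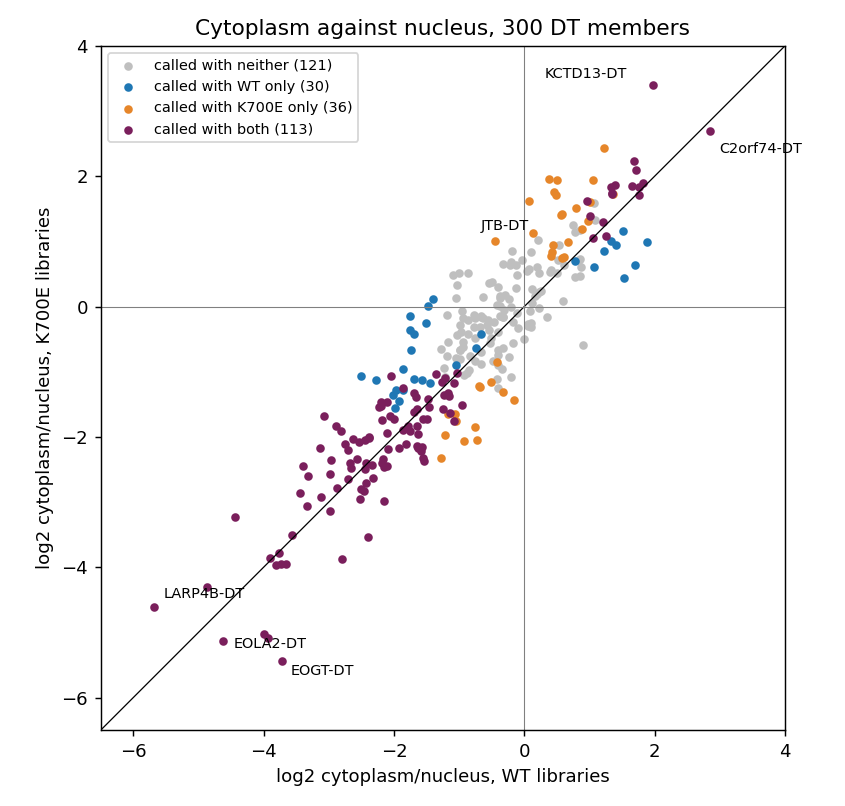
Log2 cytoplasm-to-nucleus ratio of 300 members in WT libraries (x) and K700E libraries (y), 1 point per member, coloured by calls, with the line of equal ratios in black. The 113 members called with both lie in the lower left or upper right quadrant, such as LARP4B-DT (-5.68 and -4.61) and C2orf74-DT (2.85 and 2.69).

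The direct comparisons of K700E with WT use the same libraries as the ratios above and called no member. In the nucleus 0 members were called (0.0% of all genes), with 13 at an unadjusted p under 0.05 (4.33%, against 6.81% of all genes) and a smallest adjusted p of 0.659. DESeq2 and limma voom also called 0. The 3 K700E libraries lay above the 3 WT libraries for 15 members (5.00%, against 3.91% of all genes) and below for 14 (4.67%, against 4.87%). The median member was at -0.06, and at 0.04 without WT nucleus library 2. The 6 members with the smallest p were TMEM167B-DT (-0.96 ± 0.36), IBA57-DT (-1.32 ± 0.50), RNASEH1-DT (-0.90 ± 0.35), MAN1B1-DT (-1.18 ± 0.47), PBX3-DT (-1.32 ± 0.55) and PRPF19-DT (1.35 ± 0.57). RNASEH1-DT had 3.29, 8.24 and 3.73 CPM in WT and 2.24, 2.59 and 3.14 in K700E nuclei, and without WT nucleus library 2 its difference was -0.38. TMEM167B-DT had 10.8, 35.9 and 29 against 11.1, 9.85 and 17.8 CPM, which overlap, and was at -0.61 without the same library. On simulated counts for this nuclear comparison edgeR recovered 31 of 100 genes changed 2-fold and 95 of 100 changed 4-fold. The simulated counts followed each gene's overall mean, so they held no difference between fractions, unlike the data. The changed genes were drawn only from genes above a minimum mean count, so recovery for members of lower counts was not tested.

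In the cytoplasm 0 members were called as well (0.00490% of all genes, which is 1 gene), with 14 at an unadjusted p under 0.05 (4.67%, against 4.56% of all genes). DESeq2 and limma voom also called 0 members. The median member was at 0.15, with 184 above 0 and 116 below, and the median of all genes at 0.00. The members' median was 0.06 without K700E cytoplasm library 1. The 3 K700E libraries lay above the 3 WT libraries for 28 members (9.33%, against 6.60% of all genes) and below for 11 (3.67%, against 6.98%). Other long non-coding genes had similar shares, with 8.33% above and 4.61% below for antisense genes named AS. For LINC genes the shares were 9.65% and 4.50%. NUP50-DT, beside a nucleoporin gene, had 5.16, 6.81 and 6.41 CPM in WT and 10.8, 8.90 and 11.3 in K700E cytoplasm (0.74 ± 0.26, edgeR adjusted p = 1). TMCC1-DT had 7.03, 5.65 and 8.17 against 15.6, 11.1 and 16.2 CPM (1.02 ± 0.37). EPM2A-DT, named after the laforin gene but with a start 63386 bp from it, had 1.60, 2.24 and 2.55 against 5.99, 3.10 and 3.27 CPM (0.89 ± 0.33, or 0.54 without K700E cytoplasm library 1). None of these passed after adjustment, although their 3 K700E libraries were each above all 3 WT libraries. FOXP1-DT had 0.267, 0.332 and 0.196 CPM with WT and a single count with K700E, and STX5-DT had 0.356, 0 and 0.327 CPM with WT and no count with K700E.

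Whether K700E altered the cytoplasm-to-nucleus ratio was tested as an interaction, and 0 members were called (0.0% of all genes), with 7 at an unadjusted p under 0.05 (2.33%, against 3.30% of all genes) and 0 by DESeq2 or limma voom. The median was 0.20, against 0.05 over all genes, and fell to 0.05 without WT nucleus library 2. The smallest p was that of JTB-DT. It had 5.17, 6.31 and 5.18 CPM in WT nuclei and 3.29, 4.07 and 4.71 in WT cytoplasm (-0.45 ± 0.31, edgeR adjusted p = 0.208), but 2.96, 4.23 and 4.10 in K700E nuclei and 8.13, 7.66 and 7.40 in K700E cytoplasm (1.01 ± 0.31, adjusted p = 0.00897). It was the 1 member whose fractions did not overlap in either construct and had opposite order, and its interaction of 1.46 ± 0.44 had an edgeR adjusted p of 0.98. The WT difference of JTB-DT reached a call under upper quartile factors (-0.81, adjusted p = 0.0336), under scaling to library size alone (-0.95, 0.0139) and after the filter of 1 CPM (-0.76, 0.0219), and its K700E call ended under both of these scalings. Of all genes tested 12 (0.0588%) had such an opposite order. Other genes cover 19.3% of its exons. KCTD13-DT, beside the gene of a cullin adaptor, had 0.626, 1.23 and 0.546 CPM in WT nuclei and 0.319, 0.259 and 0.436 in K700E nuclei, and 3.20, 3.99 and 3.66 against 5.05, 5.26 and 5.05 in the cytoplasm (interaction 1.43 ± 0.54, edgeR adjusted p = 0.98). ICMT-DT, beside the gene of a protein carboxyl methyltransferase, was at 0.50 ± 0.41 with WT and 1.94 ± 0.43 with K700E (interaction 1.43 ± 0.59, edgeR adjusted p = 0.98).

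Each member was then set against the coding gene in its name. In 222 of 298 pairs with both genes tested (74.5%) the member had the lower cytoplasm-to-nucleus ratio with WT, and in 209 (70.1%) with K700E. The median of partner minus member was 1.32 and 1.10 on the log2 scale. The median partner was at 0.46 and 0.40, with 131 partners higher and 64 lower with WT and 131 and 68 with K700E. As shares these were 44.0% higher and 21.5% lower with WT and 44.0% and 22.8% with K700E, against 35.7% and 29.3%, and 36.8% and 27.2%, of protein-coding genes. The member was lower and the partner higher in 43 pairs with WT and 40 with K700E, and both were lower in 26 and 28. Both were higher in 13 and 18. These pair counts, and those of the reverse below, were not compared with what the separate shares of members and partners would give. They are therefore no result about pairing. Across pairs the ratios of member and partner had a Spearman rho of 0.09 with WT and 0.12 with K700E, a description over 298 pairs that share libraries.

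Cases of a nuclear member beside an mRNA higher in the cytoplasm were C2orf49-DT and DPH5-DT. STX5-DT went the same way, but other genes cover most of its exons, as given above, so its reads cannot be told apart from theirs. C2orf49 mRNA was 1.72 ± 0.32 higher in WT cytoplasm (edgeR adjusted p = 0.000236) where C2orf49-DT was at -2.10 ± 0.26. DPH5 mRNA was at 0.97 with WT and 1.11 with K700E (edgeR adjusted p = 0.000242 and 7.34e-05). With library size alone these fell to 0.46 and 0.70 (edgeR adjusted p = 0.037 and 0.00359). The log2 ratio of C2orf49-DT to C2orf49 (CPM plus 0.1) was 0.99, 1.56 and 1.46 in WT nuclei and -2.33, -2.63 and -2.82 in WT cytoplasm, and 0.71, 0.36 and 1.36 against -3.02, -3.23 and -2.92 with K700E. That ratio was thus positive in all 6 nuclear and negative in all 6 cytoplasmic libraries. COX10-DT over COX10 moved likewise, from 1.32, 1.22 and 1.16 to -1.57, -1.50 and -1.85 with WT, here mainly through the mRNA (2.14 ± 0.28). EOGT-DT instead fell together with its mRNA, which was at -1.50 ± 0.25 with WT. The mRNA of TMEM161B, the partner of TMEM161B-DT, was at -1.0 ± 0.41 with WT (adjusted p = 0.0399) and -0.90 ± 0.41 with K700E (adjusted p = 0.062). Its WT libraries overlap, with 150, 26.4 and 68.7 CPM in nuclei and 39.4, 45.4 and 37.4 in cytoplasm, and without WT nucleus library 1 the difference was -0.17 (adjusted p = 0.665). That WT call also ended without any single WT cytoplasm library, WT nucleus library 3, or K700E nucleus library 2 or 3.

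The reverse, a member higher and its mRNA lower in the cytoplasm, was called in 1 pair with WT, CTBP1-DT with CTBP1 (1.01 ± 0.28 and -0.73 ± 0.28, edgeR adjusted p = 0.0314 for the mRNA), and in 11 pairs with K700E. The CTBP1 mRNA had 138, 293 and 209 CPM in WT nuclei and 113, 113 and 159 in WT cytoplasm, which overlap. Its call ended without WT nucleus library 2 (-0.39, adjusted p = 0.226) or 3 (-0.69, 0.0745) and without WT cytoplasm library 1 or 2 (-0.63 in both, 0.112 and 0.11), while library size alone gave -1.27. GPR155-DT with GPR155, whose product is a lysosomal membrane protein, was 1 of the 11 (2.43 ± 0.59 and -1.09 ± 0.30). MAN1B1-DT with the ER mannosidase gene MAN1B1 was another (1.62 ± 0.48 and -1.29 ± 0.25). With WT the same 2 members did not pass (GPR155-DT 1.23 ± 0.57, adjusted p = 0.0678, but 1.93 and 0.0154 without WT nucleus library 3, and MAN1B1-DT 0.07 ± 0.47, adjusted p = 0.906), and their interactions had adjusted p of 0.98.

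**Figure D3:**
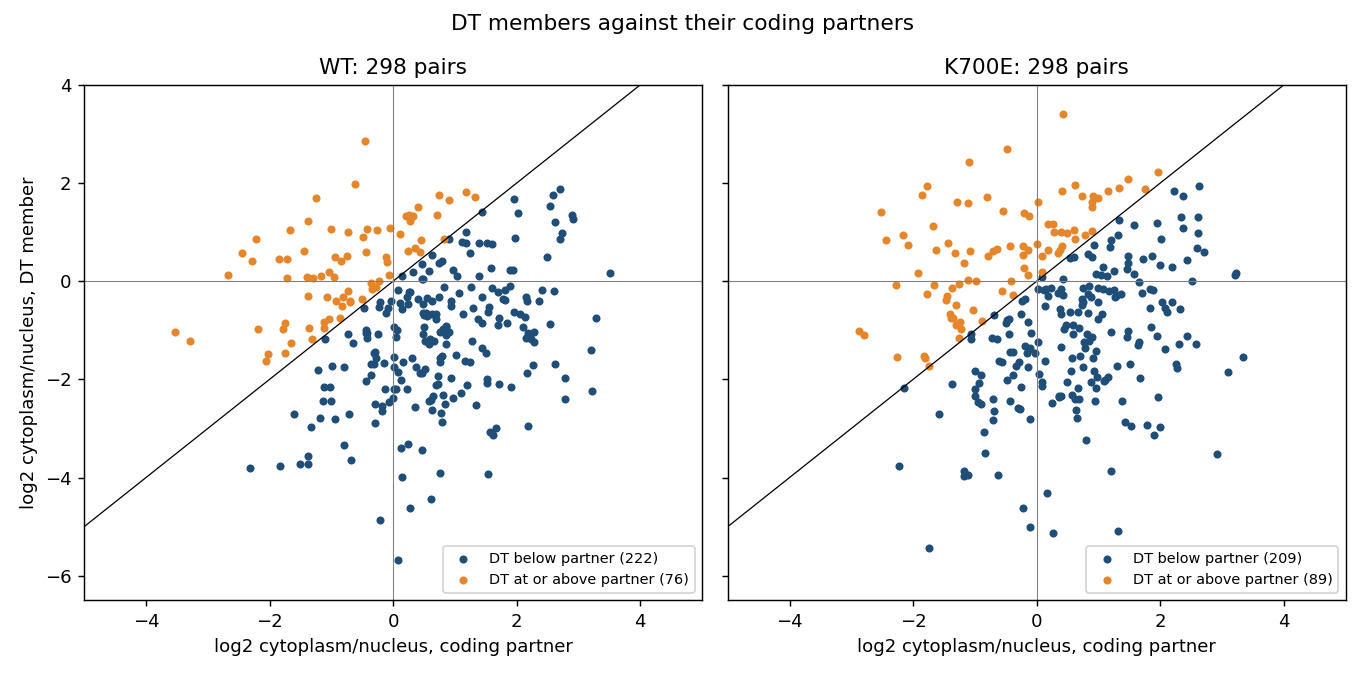
Log2 cytoplasm-to-nucleus ratio of the coding partner (x) and of the member (y) for 298 pairs, WT on the left and K700E on the right, with the line of equal ratios in black. Points below the line, 222 with WT and 209 with K700E, are pairs whose member had the lower ratio.

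Per kilobase of exonic length the coding gene was usually the more abundant of the pair. In WT nuclei the median member had 1.73 CPM per kilobase and the median partner 8.42, with a median partner-to-member ratio of 4.92 and the member above its partner in 53 of 297 pairs. In WT cytoplasm the medians were 0.880 and 11.1 CPM per kilobase, the median ratio 10.9, and the member was above in 25. With K700E the ratio was 5.32 in nuclei and 10.0 in cytoplasm, and the member was above in 51 of 297 and 29 of 296 pairs. Levels of member and partner per kilobase were almost unrelated across pairs (Spearman rho 0.07 to 0.09 in the 4 groups). Exonic lengths are those of the annotation over all transcripts, which can exceed the length of the RNA present.

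Among the members, those with 4 or more exons had lower median cytoplasm-to-nucleus ratios than those with fewer. The 68 tested members with 1 exon had a median of -0.51 with WT and 0.07 with K700E, and 19 and 16 of them were lower. The 75 with 2 exons were at -0.66 and -0.39, and the 63 with 3 exons at -0.76 and -0.83. The 37 with 4 exons had medians of -1.69 and -1.54, with 23 and 22 lower, and the 56 with 5 or more -1.09 and -1.04, with 28 lower in both. Among members without exon overlap the medians from 1 to 5 or more exons were -0.51, -0.66, -0.85, -1.36 and -1.63 with WT, in 60, 47, 38, 16 and 23 members. With K700E they were 0.07, -0.20, -0.95, -1.17 and -1.30. Spearman's rho of the ratio with exon number was -0.23 with WT and -0.28 with K700E over 299 members, and with the distance between starts 0.00 and 0.09, all as descriptions across genes.
Level moved with these ratios as well. The 76 members of 5 CPM or more had medians of -1.42 and -1.53, against -0.59 and -0.43 for the 154 of 1 to 5 CPM and -0.85 and -0.39 for the 70 under 1 CPM. Single-exon members had a median level of 1.66 CPM and those with 5 or more exons 2.74 CPM, and the part of level in the exon pattern was looked at only by keeping members of 2 CPM or more, where the medians were -0.52 and -0.15 for 31 single-exon members and -1.65 and -1.83 for 35 with 5 or more exons. Members whose span overlaps no other gene (139) were at -0.66 and -0.16.

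**Figure D4:**
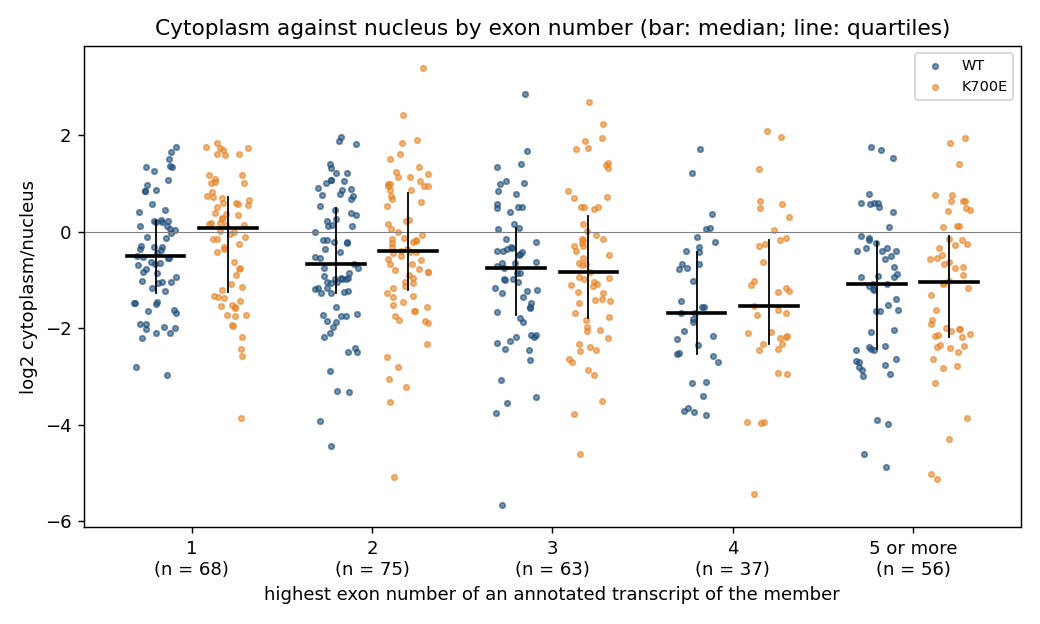
Log2 cytoplasm-to-nucleus ratio of tested members grouped by the highest exon number of an annotated transcript, with 1 point per member, WT in blue and K700E in orange, a bar at the median and a line from the lower to the upper quartile. Medians run from -0.51 (WT) and 0.07 (K700E) for 1 exon to -1.69 and -1.54 for 4 exons, and are -1.09 and -1.04 for 5 or more.

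The members stood between mRNAs and other long non-coding RNAs at the same level of at least 0.5 CPM. With WT 390 of 672 antisense genes named AS were lower (58.0%) and 39 higher (5.80%), with a median of -1.61, and 172 of 311 LINC genes were lower (55.3%) and 13 higher, with a median of -1.50. Host genes of small RNAs named HG were lowest, with 23 of 27 lower and a median of -2.81. Of 13783 protein-coding genes 4032 were lower (29.3%) and 4915 higher (35.7%), with a median of 0.15. With K700E the medians were -1.53 for AS, -1.22 for LINC, -2.42 for HG and 0.20 for protein-coding genes, against -0.61 for the members. These classes were not tested against the members, and genes within a class share the libraries.

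**Figure D5:**
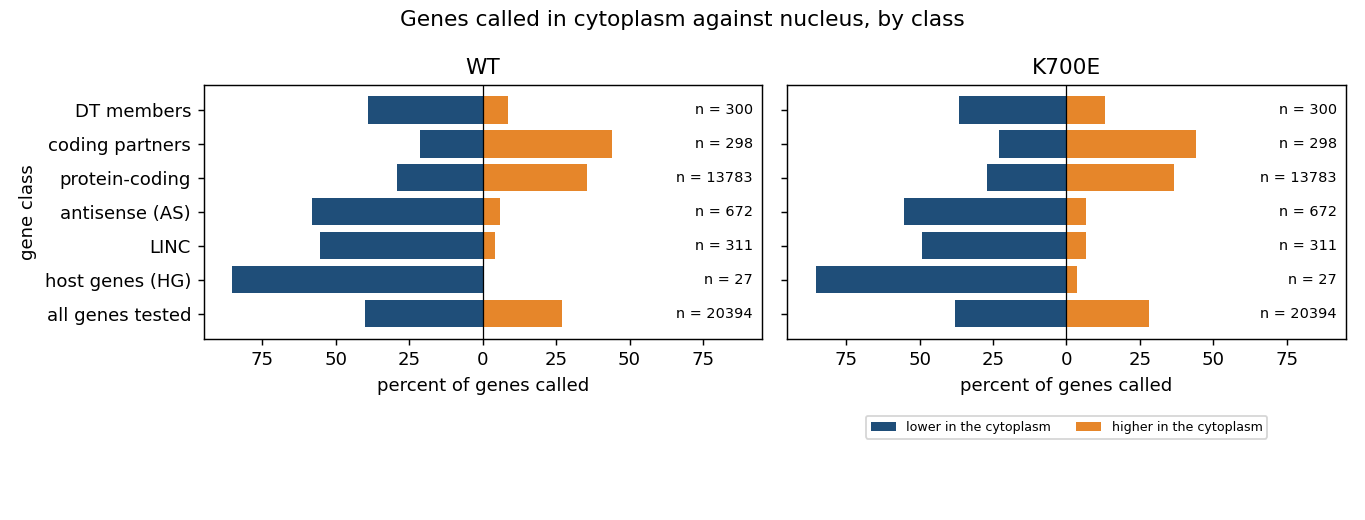
Percent of tested genes called lower (left of 0, blue) and higher (right of 0, orange) in the cytoplasm by class, WT on the left and K700E on the right, with the number tested at the right edge. Members (39.0% lower and 8.67% higher with WT) lie between protein-coding genes (29.3% and 35.7%) and antisense genes (58.0% and 5.80%). The classes were not matched for level.

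Genes of the machinery that ends and degrades promoter transcripts did not pass in any comparison of K700E with WT. Of 59 genes of the exosome, NEXT, PAXT, cap-binding and restrictor factors, Integrator, the cleavage complex, XRN2 and U1 proteins, 58 were tested, and 0 were called in the nucleus, the cytoplasm or the interaction, with 9, 3 and 2 at an unadjusted p under 0.05 (15.5%, 5.17% and 3.45%, against 6.81%, 4.56% and 3.30% of all genes). Their medians were -0.04, -0.12 and -0.09. Between fractions, the cytoplasm had 27 of their mRNAs at a higher and 9 at a lower level with WT (46.6% and 15.5%, median 0.48), and 22 and 11 with K700E (37.9% and 19.0%, median 0.32), against 35.7% and 29.3% of protein-coding genes with WT and 36.8% and 27.2% with K700E. Of 13 exosome mRNAs 8 were higher and 1 lower with both constructs, and of 4 PAXT mRNAs 3 were lower with both. These are mRNA levels of the factors and not their activity, and their relation to the members was not tested.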

How the data were processed

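RNA was extracted with Trizol from nuclear and cytoplasmic fractions, and libraries were made from 1 ug per sample, per the labels' protocols. The authors deposited raw counts per gene, 1 file per library. HISAT2 and DESeq are named without versions, per the submitters' processing notes. Not given in the sources used here were the counting program, its strand setting, the genome build and the annotation. Gene IDs (67049) were matched without version to symbols (60463) and to GENCODE release 29 on GRCh38 (58426, holding 99.7% of counts). Promoter sequences are RefSeq's on GRCh38.p14.

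Counts were fitted in R 4.3.3 with edgeR 4.0.16 (quasi-likelihood F test, 1 term per group, all 12 libraries, TMM, filterByExpr with minimum count 10 and minimum total 15, prior count 2), and p-values were adjusted over 20394 genes by Benjamini-Hochberg. The biological coefficient of variation was 0.306. SE is the log2 difference divided by the square root of F. Every printed adjusted p is edgeR's unless another tool is named. Alternatives were DESeq2 1.42.0, limma 3.58.1 voom, other scalings and filters, replicate blocks, each library left out, the 6 libraries of a comparison alone, and members by level or overlap. On simulated counts of 18814 genes for the nuclear comparison of K700E with WT, with known changes, there were 13 false calls.

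The members, lists, tests and rules were chosen with earlier results of these data known. Named members were the 10 with the highest mean, the 6 with the largest called ratio each way per construct (mean of 1 CPM or more, no overlap between groups), the 6 with the smallest p per comparison of K700E with WT and for the interaction, up to 8 called higher in the cytoplasm with both constructs, and those at the threshold. The values of 1 abundant member are not reported here.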

Additional observations from a re-analysis of the deposited data

Results flagged for a closer look

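JTB-DT was picked out because its fractions were in opposite order in the 2 constructs, with every WT cytoplasmic library below every WT nuclear one and every K700E cytoplasmic library above every K700E nuclear one. Its cytoplasm-to-nucleus difference was -0.45 ± 0.31 on the log2 scale with WT and 1.01 ± 0.31 with K700E, and the difference between them was 1.46. This interaction did not pass edgeR's test over all genes (adjusted p = 0.98), and the K700E call ended with library size alone (0.61, adjusted p = 0.0997) and with upper quartile factors (0.65, adjusted p = 0.0849). In the WT libraries the difference was called lower under those scalings (-0.95 and -0.81, adjusted p = 0.0139 and 0.0336) and with the filter of 1 CPM in all libraries (-0.76, adjusted p = 0.0219). Such an order was seen in 1 of 300 members (0.333%) and in 12 of 20394 genes tested (0.0588%).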

How the results depend on the processing

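Of 69 calls of named members 56 stood in every alternative fit that gave a value for them (20 to 22 fits each), 13 were lost in at least 1, and 0 changed direction. Of 33 named values not called, 7 were called in at least 1 alternative. In the K700E against WT comparisons and the interaction the count of members called was 0 in every fit. With 26 higher and 117 lower with WT as reported, a filter of 1 CPM in all libraries left 97 members, of which 9 were higher and 49 lower. Library size alone gave 10 higher, upper quartile factors 13, and leaving out each library in turn 17 to 32. Members without exon overlap (184) had 68 lower, and those without span overlap (139) 16 higher and 45 lower. With K700E (39 and 110) the 1 CPM filter gave 13 and 42, library size alone and upper quartile factors 21 higher each, no exon overlap 22 and 61, and no span overlap 20 and 37. The WT median of -0.77 became -0.96 with DESeq2, -1.25 with library size alone, -1.11 with upper quartile factors, -0.43 among members of 0.5 CPM or more in the cytoplasm, and -0.85 to -0.59 when each library was left out. The K700E median of -0.61 became -0.79, -0.98, -0.94 and -0.24 in the same 4 settings, -0.39 without exon overlap and -0.16 without span overlap. Pairs with the member below its partner numbered 67 of 92, 136 of 182 and 101 of 138 with WT under the 1 CPM filter, no exon overlap and no span overlap, and 62 of 92, 125 of 182 and 90 of 138 with K700E. Smaller sets give smaller counts by construction. The cause of the other shifts was not tested.

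With the replicate block 27 members were higher and 116 lower with WT and 40 and 111 with K700E, and with a replicate block by construct and number 22 and 103, and 35 and 101. Same-numbered libraries did not deviate together throughout (correlations down to -0.36), so the numbers were not taken as pairs. Counts were low for the 81 members under 1 CPM, and the part of depth was not tested.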
